A study of Bos taurus with 3 samples.

Results

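The tRNA loci of the cattle genome were the places to which the transfer RNA of bovine milk-derived extracellular vesicles (BM-EVs) was assigned. Rfam is a database of non-coding RNA families, and each of its sequences is named here by its chromosome and positions. A sequence was taken as a tRNA locus when the authors' small RNA table gave its family as tRNA, and this made 919 members out of 1631 Rfam sequences with a count in at least 1 library. The choice used the family name and no measured value. All RNA came from untreated BM-EVs of skimmed, pasteurized cow milk, isolated by acidification and salting-out with ammonium sulfate, and 100 ng of total RNA went into each library. The 3 libraries were of a single condition without a control, so no groups were compared. The labels number the libraries 1 to 3 and do not say which milk sample or animals gave each, and the spread between them may be technical. As its biological replicates the paper took 3 milk samples that differed in expiration date, without tying them to the libraries. Differences between milk samples and technical spread cannot be told apart here.

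Transfer RNAs carry amino acids to the ribosome and read the codons of messenger RNA through their anticodon. Mammalian genomes hold many tRNA genes, and different genes can give tRNAs of identical sequence, so that a sequenced molecule often cannot be assigned to 1 gene. The genes are transcribed by RNA polymerase III, lie partly in dense clusters, and have related pseudogenes and repeats. Most tRNAs are of nearly equal length, and the leucine and serine tRNAs are longer because of a long variable arm, while some tRNA genes are longer because of an intron. Whole tRNAs and fragments cut from them are known cargo of extracellular vesicles. The counts do not tell whole tRNAs from fragments, the files do not pair the loci with an amino acid or anticodon, and in bulk vesicle RNA fewer vesicles with a tRNA and fewer copies per vesicle cannot be told apart.

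Each count is a number of unique molecular indices (UMIs), short tags that allow PCR duplicates to be removed. In library 1 the tRNA loci held 650638 of 1013392 Rfam UMIs, while library 2 had 1438648 of 1937450 and library 3 had 449270 of 863833. Their share of the Rfam UMIs was 64.2% in library 1 (Wilson 95% confidence interval 64.1 to 64.3%), 74.3% in library 2 (74.2 to 74.3%) and 52.0% in library 3 (51.9 to 52.1%). The libraries thus differed by far more than these intervals, with a mean of 63.5% ± 11.1 (SD, n = 3 libraries). The intervals take every UMI as a separate count and are too narrow if loci share UMIs. With near-equal tRNA loci, defined below, counted once and all other Rfam sequences left as counted, the mean was 36.3%. Near-equal sequences of the other families were not reduced in this value. All shares below are percentages of the tRNA UMIs of a library, and a mean ± SD is over the 3 libraries. Where near-equal loci were counted once, the shares are percentages of the smaller total of that count. A library listed only loci with at least 11 UMIs, which leaves up to 10 UMIs possible for an unlisted locus. Unlisted loci counted as 0 when sums and means were taken.

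Library 1 listed 703 of the 919 loci, library 2 listed 799 and library 3 listed 757. All 3 libraries listed 623 loci, which held 99.5% ± 0.439 of the tRNA UMIs. A further 94 loci were listed in 2 libraries and 202 in 1 library. Most loci had few UMIs. The median count of a listed locus was 59 in library 1, 110 in library 2 and 62 in library 3, and 414, 376 and 488 loci in libraries 1, 2 and 3 had under 100 UMIs. These loci held 2.11%, 0.985% and 4.32% of the tRNA UMIs. Only 241 loci had at least 100 UMIs in every library, and they held 96.1% ± 1.16. Another 67 Rfam sequences spanned 71 to 74 bases but had no family name in the rows of the authors' table at hand. They held 205, 154 and 510 UMIs in libraries 1, 2 and 3 and were not counted as members.

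A small number of loci held most of the tRNA. The 20 highest loci of each library made up 61.9%, 63.2% and 62.2% of the tRNA UMIs in libraries 1, 2 and 3, a mean of 62.4% ± 0.692. In every library 15 loci were enough to reach 50%. With near-equal loci counted once, the 20 highest units held 70.2%, and a mean of 6.33 units reached 50%. The numbers needed to reach 90% were further apart, at 81, 96 and 136 loci. The Gini coefficient over the listed loci, which is 0 when all loci have equal counts, was 0.894, 0.902 and 0.871. The libraries were therefore close over the 20 highest loci and differed below them. The 50 highest loci held 85.6%, 82.3% and 78.9% in libraries 1, 2 and 3, and library 3 had the lowest Gini coefficient. The single highest locus held 4.09% ± 0.0818.

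**Figure D1:**
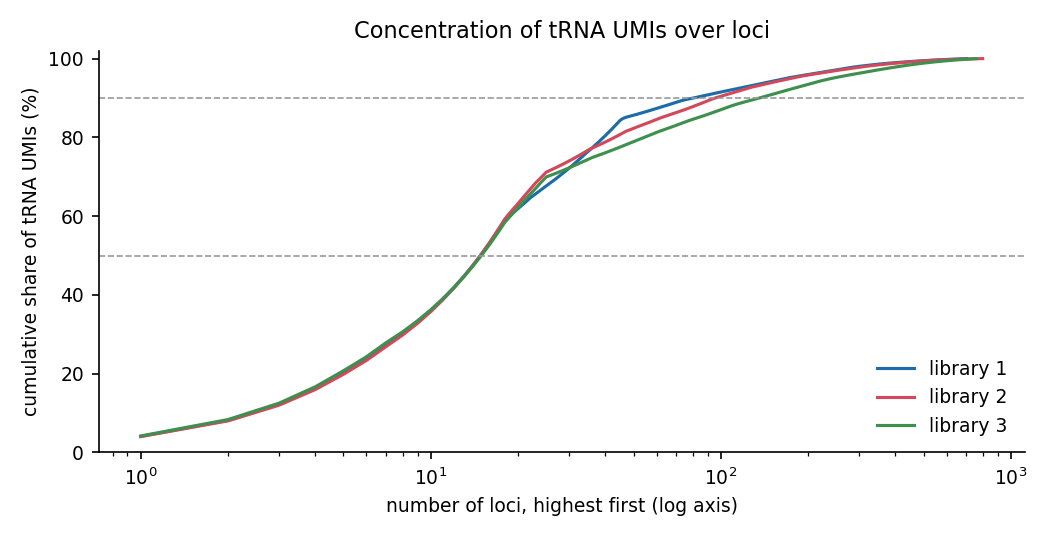
Cumulative share of tRNA UMIs (y axis, %) against the number of loci taken from the highest down (x axis, log scale), 1 line per library, with dashed lines at 50% and 90%. The 3 lines meet at 15 loci for 50% and part before 90%, which they reach at 81 (library 1), 96 (library 2) and 136 (library 3) loci.

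The 18 highest loci by mean share were all 72 bases long and fell on 3 levels. On the first level were chr23:29874146-29874217, chr3:8110642-8110713, chr7:44000403-44000474, chr3:21457743-21457814 and chr3:8094449-8094520. The locus on chromosome 23 had 26500, 57838 and 18713 UMIs in libraries 1, 2 and 3. The 5 loci together ranged from 25331 to 26561 UMIs in library 1, from 55676 to 57838 in library 2 and from 18294 to 18790 in library 3. Each of them was therefore within 5% of the highest in every library, although they lay on chromosomes 3, 7 and 23.

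On the second level were chr3:20943569-20943640 with 23512, 50634 and 15931 UMIs in libraries 1, 2 and 3 and chr9:25853594-25853665 with 23366, 50094 and 15885. On the third level were 11 loci with 18237 to 18889, 41256 to 42787 and 12241 to 12596 UMIs. On chromosome 3 they were chr3:8111825-8111896, chr3:8114684-8114755, chr3:8019955-8020026, chr3:8102298-8102369 and chr3:8095655-8095726. The others were the pair chr17:53128220-53128291 and chr17:53131191-53131262, the pair chr23:30858999-30859070 and chr23:30940464-30940535, chr5:60678961-60679032 and chr19:28460395-28460466. The first level made up 20.3% ± 0.458 of the tRNA UMIs, the second 7.10% ± 0.102 and the third 31.5% ± 0.925. Together the 18 loci held 59.0%, 59.3% and 58.4% in libraries 1, 2 and 3. They lay on 7 chromosomes, with 9 on chromosome 3 and 3 on chromosome 23.

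After these 18 loci came chr2:1242935-1243006 with 9933, 29877 and 8752 UMIs in libraries 1, 2 and 3 and chr12:15143700-15143771 with 8735, 26812 and 8102. The second of these had a near-equal partner on another chromosome, chr21:3276866-3276937, with 8728, 26769 and 8072 UMIs. The locus on chromosome 2 had no partner within 5%. Its share was 1.85% ± 0.288, and that of the locus on chromosome 12 was 1.67% ± 0.285. Both shares were lower in library 1 than in the other two libraries.

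**Figure D2:**
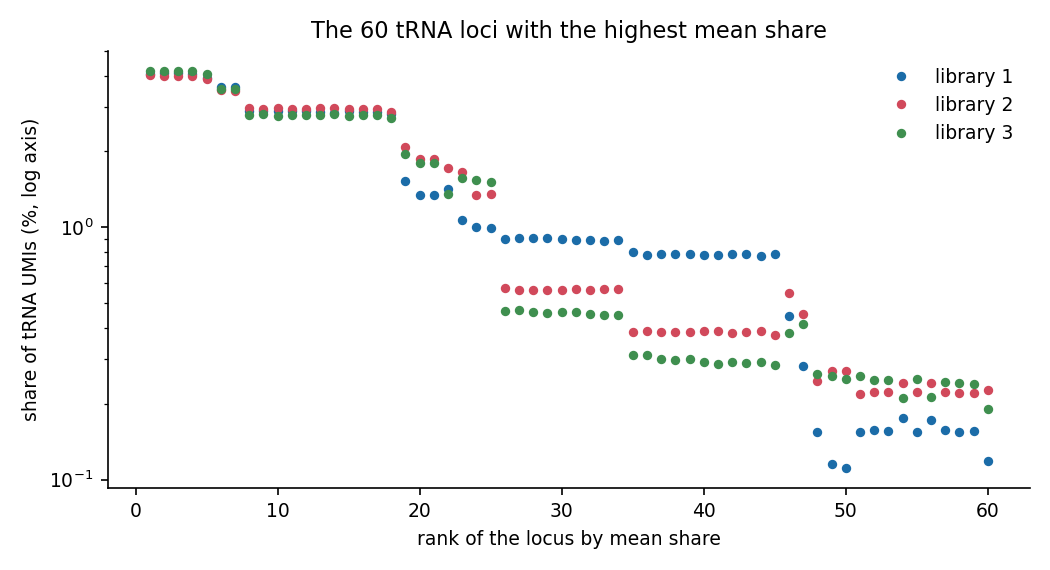
Share of tRNA UMIs (y axis, %, log scale) of the 60 loci with the highest mean share, in order of rank (x axis), 1 point per library. The loci fall on flat steps. The 3 libraries lie close together on the first 18 loci, and on the steps at ranks 26 to 45, where all loci but 1 have 71 bases, library 1 lies above library 2 and library 2 above library 3.

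Such steps were also seen among lower loci. Loci were taken as near-equal when each had at least 100 UMIs in every library and differed by at most 5%, in every library, from the locus of the group with the most UMIs over the 3 libraries. This gave 49 groups with 162 of the 241 loci, and these held 86.6% ± 2.23 of the tRNA UMIs. Loci in a group may share UMIs, and then their separate counts are not separate measurements. In 48 of the 49 groups all loci had the same length, which the grouping did not use. In 33 groups, with 116 loci and 77.8% ± 1.85 of the tRNA UMIs, the members lay on more than 1 chromosome. If these loci share UMIs, their chromosome of origin cannot be told apart. With a tolerance of 2% the groups held 70.03%.

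Group sizes reached 11 loci, and 11 groups had at least 5 loci. Besides those of 5 and 11 loci among the 18 highest, 4 of these were of 71-base loci. The group of chr23:31446852-31446922 had 9 loci and held 5.77% ± 2.05, that of chr3:21416793-21416863 had 6 loci and held 2.91% ± 1.56, that of chr3:21084725-21084795 had 5 loci, 1 of them of 70 bases, and held 2.46% ± 1.29, and that of chr3:21031346-21031416 had 5 loci and held 0.753% ± 0.133. The first 3 of them varied between libraries by much more than their counting error.

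The other groups of at least 5 loci were smaller in UMIs. The group of chr19:40090180-40090251 had 7 loci of 72 bases, 4 on chromosome 19 and 3 on chromosome 4, with 1002 to 1028 UMIs in library 1, 3153 to 3215 in library 2 and 1075 to 1156 in library 3. The group of chr3:21414468-21414539 had 8 loci of 72 bases, all on chromosome 3, with 1109 to 1156, 2178 to 2265 and 726 to 761 UMIs. The group of chr25:2618370-2618442 had 9 loci of 73 bases, 8 on chromosome 25 and 1 on chromosome 23, with 500 to 545, 2135 to 2245 and 522 to 562 UMIs. Their shares were 1.46% ± 0.330, 1.32% ± 0.0856 and 1.06% ± 0.323. The group of chr3:20944854-20944925 had 6 loci of 72 bases and held 0.415% ± 0.0846. The group of chr23:31438772-31438853 had 5 loci of 82 bases, 4 of them on chromosome 23, and held 0.266% ± 0.0569. Groups thus occurred both within 1 stretch of a chromosome and across chromosomes.

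Chromosome 3 held 44.7%, 42.2% and 41.9% of the tRNA UMIs in libraries 1, 2 and 3, a mean of 42.9% ± 1.53. Chromosome 23 was the second with 13.8%, 13.4% and 13.9%, a mean of 13.7% ± 0.298. Chromosome 17 held 5.97% ± 0.171 and was the third in every library. Chromosome 19 held 5.08% ± 0.114 and chromosome 7 held 5.06% ± 0.197, and their order changed between libraries. Chromosomes 5, 9, 2 and 18 followed with 4.67% ± 0.376, 3.61% ± 0.0526, 3.05% ± 0.195 and 2.77% ± 0.855. All 30 chromosomes in the sequence names, the 29 autosomes and X, had at least 1 listed locus. The 15 lowest of them had 225 loci and held 2.84% together.

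The number of loci did not follow the same order. Chromosome 23 had the most loci with 159, against 130 on chromosome 3, and yet chromosome 3 held far more UMIs. The mean share per listed locus was 0.330% on chromosome 3, 0.0862% on chromosome 23, 0.285% on chromosome 17 and 0.328% on chromosome 9. Without the 18 highest loci, chromosome 3 held 12.9% ± 1.54 over 121 loci and chromosome 23 held 3.89% ± 0.399 over 156 loci, so chromosome 3 was the higher with and without them. On 5 other chromosomes 1 locus held more than 80% of the tRNA UMIs of the chromosome. This was 97.9% at chr9:25853594-25853665, 92.3% at chr12:15143700-15143771, 90.6% at chr28:40330920-40330990, 85.1% at chr21:3276866-3276937 and 80.7% at chr7:44000403-44000474. Each of these 5 loci had a near-equal partner on another chromosome, and those on chromosomes 12 and 21 were partners of each other. They may share UMIs, so these values need not belong to the single locus.

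These chromosome shares are uncertain to the extent that near-equal loci share UMIs. On chromosome 3, 25 loci with 78.4% of its tRNA UMIs had a near-equal partner on another chromosome, and on chromosome 23 these were 19 loci with 86.9%. Each near-equal group was also counted once, as the mean of its loci divided evenly over them. Chromosome 3 then held 32.1% and chromosome 23 held 10.6%. Another way to assign a group to chromosomes would give other values.

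**Figure D3:**
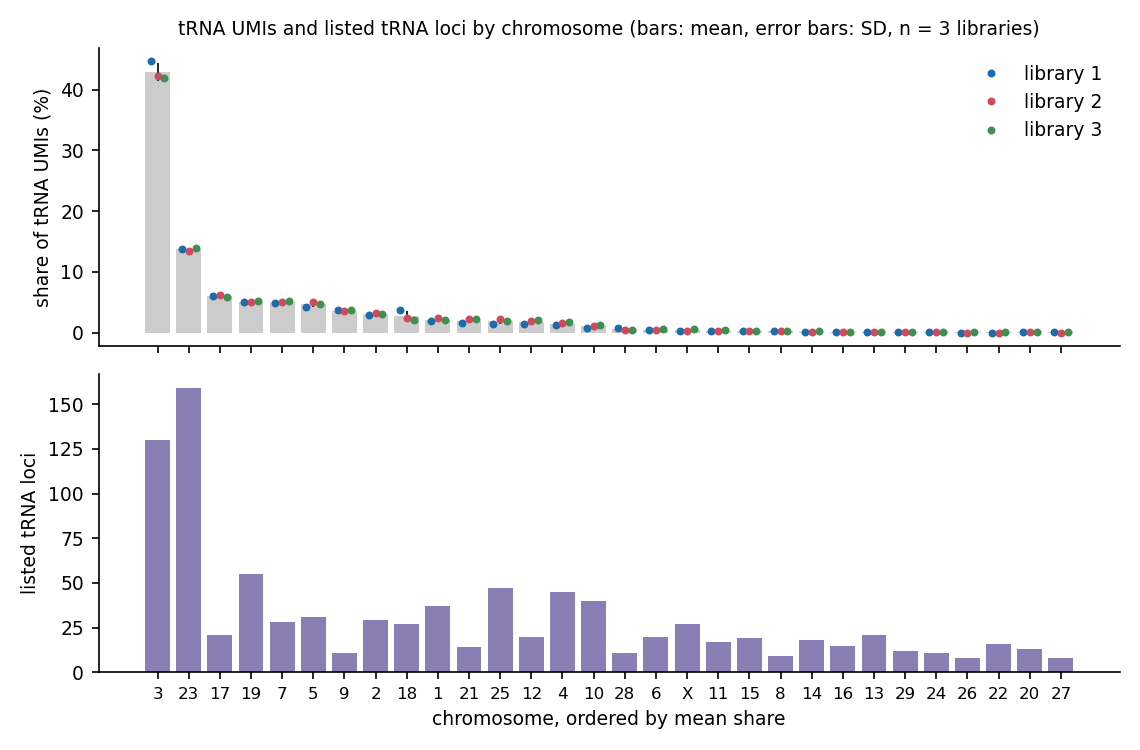
Upper panel, share of tRNA UMIs (%) per chromosome as the mean of 3 libraries (bars, error bars SD) with 1 point per library. Lower panel, number of listed tRNA loci. Chromosome 3 holds 42.9% of the UMIs on 130 loci, while chromosome 23 holds 13.7% on 159 loci.

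Loci were joined to a genomic cluster when neighbours on a chromosome lay within 100 kb of each other and at least 5 loci were joined. The 14 clusters held 359 loci, or 39.1% of all, and 71.6%, 69.9% and 69.8% of the tRNA UMIs in libraries 1, 2 and 3. The 560 loci outside clusters held 29.6% ± 0.981, and 14.0% ± 0.517 of this was at 5 loci of the highest 20, on chromosomes 7, 9, 5, 2 and 12. With a largest gap of 10 kb the clusters held 51.8%. With near-equal loci counted once, the clusters of the 100 kb gap held 50.4%.

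The largest part was in the clusters of chromosome 3. The first, chr3:8007513-8114755, had 17 loci in 107 kb and held 23.7%, 23.8% and 23.7% in libraries 1, 2 and 3. Of this share, 96.8% was at loci with a near-equal partner outside the cluster. Of its 17 loci, 7 belonged to the 18 highest, and these alone made up 22.3% ± 0.214. It had 12 loci on the minus strand and 5 on the plus strand, with chr3:8110642-8110713 as the highest. The second, chr3:20907958-21457814, had 77 loci in 550 kb and held 20.6%, 17.9% and 17.6%, with chr3:21457743-21457814 as the highest. Of the share of the second cluster, 57.0% was at loci with a near-equal partner outside this cluster. It had 34 loci of 72 bases, 18 of 74 bases, 12 of 71 bases and 11 of 73 bases, and many of its loci lay at repeated levels. The share of the second cluster was higher in library 1 than in the others, and that of the first was nearly constant. Outside these clusters, the 36 other loci of chromosome 3 held 0.472% ± 0.102.

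**Figure D4:**
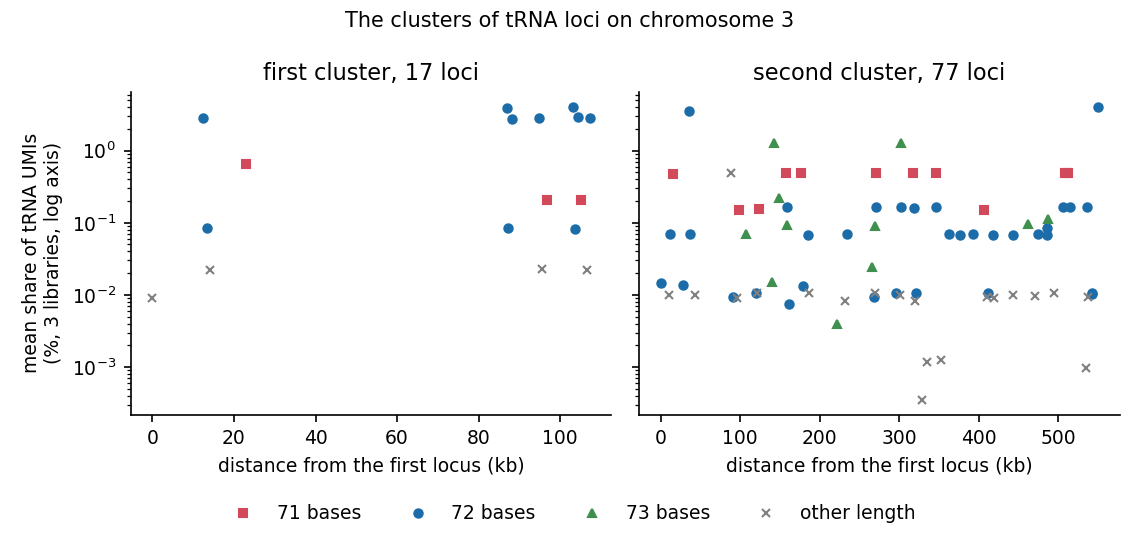
Mean share of tRNA UMIs over 3 libraries (y axis, %, log scale) of each locus in the clusters of chromosome 3 against the distance from the first locus of the cluster (x axis, kb), with the length of the locus as symbol. The first cluster has 7 loci of 72 bases above 1% among 17 loci, and the 77 loci of the second lie on repeated levels, with the 71-base loci on levels of their own.

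Chromosome 23 also had a pair of clusters. The longer one, chr23:30708854-31571219, had 106 loci in 862 kb and held 8.55% ± 0.284, with chr23:30940464-30940535 as the highest. The shorter one, chr23:29870870-30058363, had 41 loci in 187 kb and held 5.08% ± 0.356, of which 80.4% was at chr23:29874146-29874217 alone. The cluster chr17:53127889-53134769 had 5 loci in 6.88 kb and held 5.82% ± 0.168. The cluster chr19:28372611-28465571 had 18 loci and held 3.88% ± 0.150, with chr19:28460395-28460466 as the highest. Loci with a near-equal partner outside their cluster held 88.8%, 84.9%, 99.3% and 97.1% of the shares of these clusters, in the order given. Each of these clusters had at least 1 of the 18 highest loci.

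The clusters of chromosomes 25 and 4 had none of them. The cluster chr25:2584569-2635236 had 30 loci in 50.7 kb, 25 of them on the plus strand, and held 1.31%, 2.06% and 1.70% in libraries 1, 2 and 3. Its UMIs were spread over many loci, and the highest locus, chr25:2630204-2630276, made up 7.05% of the cluster. The cluster chr4:113178960-113363920 had 16 loci, all of 72 bases, and held 1.02%, 1.30% and 1.39%, with chr4:113190347-113190418 as the highest. In both clusters library 1 had the lowest share. Loci with a near-equal partner outside their cluster held 83.5% of the share of the chromosome 25 cluster and 74.6% of that of the chromosome 4 cluster. The other 6 clusters held 0.120% to 0.533% each.

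The strand of a locus is given by the order of its positions. The minus strand had 436 loci with 59.1% ± 1.33 of the tRNA UMIs, and the plus strand had 483 loci with 40.9%. Of the 18 highest loci, 11 were on the minus strand and held 36.9% ± 0.134. Without the 18, the minus strand held 22.2% ± 1.34 and the plus strand 18.9% ± 1.24 of all tRNA UMIs. Near-equal groups also mixed strands, with 4 minus and 1 plus loci on the first level and 6 and 5 on the third. If such loci share UMIs, their strand of origin cannot be told apart.

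Length, which the family name did not use, divided the UMIs unevenly. Loci of 72 bases were 42.5% of the loci and held 76.5% ± 2.46 of the UMIs, with the lowest share in library 1. Of this mean, the 18 highest loci held 58.9% and the other 373 loci 17.6%. The 85 loci of 71 bases held 17.9%, 11.2% and 9.06%, a mean of 12.7% ± 4.61, and the highest was chr23:31446852-31446922. The 226 loci of 73 bases held 5.09%, 7.87% and 8.65% (SD 1.87), and the highest was chr3:21050352-21050424 with 6506, 19375 and 6896 UMIs. The 71-base loci thus had their highest share in library 1, where the 73-base loci had their lowest.

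The longer loci had few UMIs. The 73 loci of 81 to 83 bases, the length range of tRNAs with a long variable arm, held 1.91%, 1.79% and 2.53%, and the highest was chr10:26471455-26471536 with 447, 1316 and 442 UMIs. The 34 loci over 83 bases, up to 129 bases, held 0.276%, 0.397% and 0.518%. The highest of them was chr3:45908757-45908883, 127 bases long, with 493, 1978 and 499 UMIs. The 71 loci of 74 bases held 0.455% ± 0.182, led by chr5:32822010-32822083, and the 6 loci of 75 to 80 bases 0.0440% ± 0.0101, led by chr6:683015-683092. The 33 loci under 71 bases held 0.627% ± 0.200, of which chr3:20996074-20996143, 70 bases long, held 0.490%.

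Library differences were measured as the ratio of a locus's share of tRNA UMIs between libraries, over the 241 loci with at least 100 UMIs in every library. They compare libraries and not conditions, and they are relative to the tRNA total of each library, which was a different part of all Rfam UMIs in each. For library 2 to library 1 the median log2 ratio was 0.09, with the 10th percentile at -0.65 and the 90th at 0.87. For library 3 to library 1 the median was 0.36, with -0.50 and 1.02 as these percentiles. For library 3 to library 2 it was 0.08, with -0.37 and 1.09. A log2 ratio above 1 was seen at 10, 26 and 28 loci for these pairs, and a log2 ratio below -1 at 15, 11 and 0 loci. Over all loci listed in both libraries of a pair, the chi-square per degree of freedom was 63.4, 59.7 and 32.5, far above the value of 1 for counting noise alone. These medians depended on the scaling. With TMM factors over 998 Rfam sequences in place of the tRNA totals, every log2 ratio shifted by 0.12 for library 2 to library 1, by -0.53 for library 3 to library 1 and by -0.65 for library 3 to library 2, and the medians became 0.21, -0.17 and -0.57. The order of the loci within a pair is the same under any such scaling. Across loci the log2 counts still correlated with r = 0.951, 0.948 and 0.951 over 659, 635 and 669 loci. Loci are not independent replicates, and near-equal loci may share UMIs.

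As shares of the tRNA UMIs, the 18 highest loci moved little. The ratio of library 2 to library 1 was 0.987 for chr23:29874146-29874217 (95% interval 0.973 to 1.00 for counting error), 0.974 for chr3:20943569-20943640 (0.959 to 0.989) and 1.02 for chr3:8111825-8111896 (1.01 to 1.04). For library 3 to library 1 the ratios of these loci were 1.02, 0.981 and 0.963. With TMM scaling the shifts given above apply to these loci too, so their small change holds for shares of the tRNA UMIs only. The loci of 3 near-equal groups, all but 1 of them of 71 bases, had lower shares in libraries 2 and 3 than in library 1. The group of 9 loci, with 4 on chromosome 18 and others on chromosomes 23, 2, 3 and 19, had 5768 to 5902 UMIs in library 1, 8103 to 8305 in library 2 and 2017 to 2107 in library 3. For its highest locus, chr23:31446852-31446922, the ratio was 0.641 (0.620 to 0.663) for library 2 to library 1 and 0.516 (0.490 to 0.542) for library 3 to library 1. Its 4 loci on chromosome 18 held 3.59%, 2.27% and 1.83% in libraries 1, 2 and 3, out of 3.74%, 2.44% and 2.13% for the whole chromosome.

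The groups of 5 and 6 loci went further in the same direction. They had 5016 to 5204 UMIs in library 1, 5389 to 5612 in library 2 and 1276 to 1400 in library 3, and 10 of the 11 loci lay in the second cluster of chromosome 3, with the other on chromosome 28. For chr3:21084725-21084795 the ratio was 0.479 (0.461 to 0.498) for library 2 to library 1 and 0.390 (0.367 to 0.413) for library 3 to library 1. For chr3:21416793-21416863 it was 0.496 (0.477 to 0.515) and 0.374 (0.352 to 0.398). The lowest ratios of library 3 to library 1 were those of chr3:20923355-20923425, chr3:21420077-21420147 and chr3:21065482-21065552, at 0.362 to 0.372. Within the second cluster of chromosome 3, these 10 loci held 7.83%, 3.85% and 2.96% of the tRNA UMIs in libraries 1, 2 and 3. Without them the cluster held 12.8%, 14.1% and 14.6%, so its higher share in library 1 was at these loci. Without the 3 groups, the share of the 71-base loci lay between 1.97% (library 3) and 2.27% (library 2).

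The 73-base loci lay on the other side. Of all 241 loci, 144 (59.8%) had a higher share in library 2 than in library 1 and 178 (73.9%) a higher share in library 3 than in library 1, and the counts by length are read against these. With TMM scaling, which moves all loci of a pair alike, these were 161 and 88 of 241. Of the 48 loci of 73 bases among them, 42 had a higher share in library 2 than in library 1 and 45 a higher share in library 3 than in library 1, with medians of 0.83 and 0.78 on the log2 scale. With TMM scaling the counts were 42 and 43, with medians of 0.96 and 0.25. The highest ratios of library 2 to library 1 were at chr23:31009220-31009292, with 195, 1274 and 346 UMIs in libraries 1, 2 and 3 and a ratio of 2.95 (2.54 to 3.45), at chr10:94199940-94200012, with 347, 2244 and 662 UMIs and a ratio of 2.92 (2.61 to 3.28), and at chr3:21177498-21177570, with 268, 1586 and 520 UMIs and a ratio of 2.68 (2.35 to 3.06). Of the 126 loci of 72 bases, 75 were higher in library 2 than in library 1 and 95 higher in library 3 than in library 1. With TMM scaling the counts were 91 and 37, and the turn to a minority for library 3 was that of all loci. Of the 32 loci of 71 bases, 12 and 5 were higher, and 13 and 1 with TMM scaling.

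The 29 loci of 81 to 83 bases differed between these pairs. All 29 were higher in library 3 than in library 1, with a median of 0.33, but only 11 were higher in library 2 than in library 1, with a median of -0.24. With TMM scaling the direction for library 3 to library 1 turned, as it did over all loci, with 4 of 29 higher and a median of -0.20, beside a median of -0.17 over the 241 loci. The count for library 2 to library 1 was 11 under either scaling. The lowest ratios of library 2 to library 1 were at loci of 82 bases, chr23:30052391-30052472 with 140, 116 and 105 UMIs and chr23:31147419-31147500 with 129, 108 and 106. The ratios were 0.375 (0.290 to 0.483) and 0.379 (0.290 to 0.493). The next lowest was chrX:132029728-132029800, of 73 bases, with 0.403 (0.333 to 0.489). When near-equal loci were counted once, a count added after the data were seen and leaving 128 units, the 73-base units were higher in library 2 than in library 1 in 23 of 27, beside 78 of 128 over all units. The 81 to 83-base units were higher in library 3 than in library 1 in 15 of 15, beside 104 of 128 over all units. These units need not be separate, since some groups of the same length had close counts. The 73-base groups of chr25:2618370-2618442 and chr25:2635164-2635236 had 500 to 545 and 513 to 530 UMIs in library 1. In library 2 they had 2135 to 2245 and 2093 to 2125. The 82-base groups of chr23:31438772-31438853 and chr23:30944726-30944807 had 334 to 345 and 328 to 341 in library 1. In library 3 these had 286 to 300 and 271 to 272. The tallies may thus repeat shared UMIs. For the 71-base units the median was 0.05 for library 2 to library 1, with 8 of 11 units above 0, against -0.64 over the 32 loci. For library 3 to library 1 it was -0.24, with 4 of 11 units above 0, against -0.96 over the 32 loci. The low values of the 71-base loci thus lay mainly in the 3 near-equal groups described above.

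**Figure D5:**
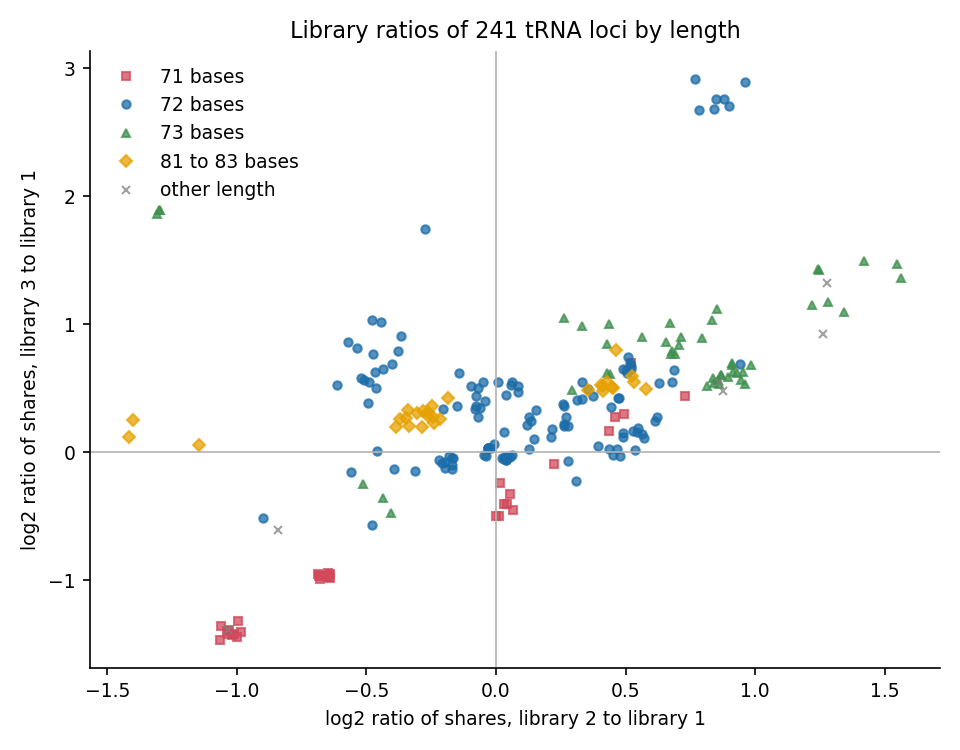
Log2 ratio of the share of tRNA UMIs for library 2 to library 1 (x axis) and library 3 to library 1 (y axis), 1 point for each of the 241 loci with at least 100 UMIs in every library, with length as symbol. The 71-base loci of 3 near-equal groups lie in tight clumps at the lower left, while other 71-base loci lie nearer to 0 or above it, most 73-base loci lie at the upper right, 7 loci of 72 bases stand apart at the top, and 3 of 73 bases on chromosome X at the upper left.

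A set of 72-base loci was higher in library 3. The 7 loci with a log2 ratio of library 3 to library 1 above 2, a limit chosen after the values were seen, had 126 to 184 UMIs in library 1, 542 to 734 in library 2 and 647 to 817 in library 3. The highest ratios were at chr7:20640247-20640318 with 150, 565 and 782 UMIs and a ratio of 7.55 (6.33 to 9.05), at chr6:75196787-75196858 with 126, 542 and 647 UMIs and 7.44 (6.14 to 9.07), and at chr3:21393408-21393479 with 170, 691 and 796 UMIs and 6.78 (5.74 to 8.05). Together the 7 loci held 0.178%, 0.322% and 1.21% in libraries 1, 2 and 3. Of the 7 loci, 5 were members of near-equal groups and may share UMIs, so that they are not separate measurements. By position, 4 of the 7 lay within 1 kb of one of the 18 highest loci, as did 13 of all 901 other loci, these 4 included. They were chr3:8020916-8020987, chr3:8094819-8094890, chr3:8111015-8111086 and chr19:28459901-28459972, at 890, 299, 302 and 423 bases. The difference was not shared by the neighbours among the 18, as at chr3:8094449-8094520, which held 3.89%, 3.87% and 4.07% in libraries 1, 2 and 3. The 9 other loci within 1 kb of the 18 were outside the set and varied among themselves, from chr3:8112563-8112633 with 1138, 3463 and 951 UMIs to chr3:8102947-8103029 with 73, 256 and 176 UMIs.

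Another set lay on chromosome X. The cluster chrX:132024379-132039225 had 7 loci, all on the plus strand, and held 0.131%, 0.0851% and 0.475% of the tRNA UMIs in libraries 1, 2 and 3. The loci chrX:132029728-132029800, chrX:132030971-132031043 and chrX:132037211-132037283 formed a near-equal group of 73 bases. They had 224 to 231 UMIs in library 1, 201 to 207 in library 2 and 573 to 589 in library 3. The ratio of library 3 to library 2 was 9.13 (7.76 to 10.8) at chrX:132037211-132037283, 9.11 at chrX:132030971-132031043 and 9.02 at chrX:132029728-132029800, the 3 highest of that pair. In the same cluster chrX:132024379-132024451 had 131, 523 and 196 UMIs, and its share was higher in library 2 than in library 1. The lowest ratios of library 3 to library 2 were closer to 1, at 0.689 for chr7:76906179-76906250, 0.698 for chr3:21006874-21006944 and 0.698 for chr3:20919033-20919104.

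Of the loci listed in 1 library, 32 were listed in library 1 (at most 32 UMIs), 94 in library 2 (at most 62 UMIs) and 76 in library 3 (at most 297 UMIs). Library 2 had the most tRNA UMIs of the 3 and library 3 the fewest. The loci chr21:23821463-23821530, chr26:17575564-17575635 and chr10:95717720-95717791 had 297, 293 and 280 UMIs in library 3 and no listed count in the others. Since an unlisted locus had at most 10 UMIs, their share in library 3 was at least 43.0, 42.4 and 40.5 times that in library 1 and at least 95.1, 93.8 and 89.7 times that in library 2. All 76 loci together held 0.673% of the tRNA UMIs of library 3.

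The tRNA loci were also set beside all sequences whose family name held ribosomal RNA, pooled over families, in a comparison that was not planned. With every sequence counted separately, the single highest sequence held a smaller share of its set for tRNA than for ribosomal RNA. It held 4.08%, 4.02% and 4.18% of the tRNA UMIs in libraries 1, 2 and 3, against 7.54%, 8.10% and 8.09% for the 347 ribosomal RNA sequences within their own UMIs. It was lower for tRNA in 3 of 3 libraries, with a mean difference of -3.82 percentage points ± 0.320 for tRNA minus ribosomal RNA (SD, n = 3; exact two-sided sign permutation test, p = 0.25, the smallest p that 3 libraries allow), so the test cannot show a difference. This direction turned when near-equal sequences were counted once in both sets. The highest tRNA unit then held 14.0%, 12.4% and 12.2%, against 9.55%, 10.7% and 10.1% for the highest ribosomal RNA unit. With every sequence counted separately, the number that reached 50% was 15, 15 and 15 of the 919 tRNA loci. It was 20, 18 and 18 of the 347 ribosomal RNA sequences. With near-equal loci counted once, the mean for tRNA was 6.33 units, and no such value is given for ribosomal RNA. The sets are therefore not compared on this number.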

How the data were processed

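Small RNA of BM-EVs was sequenced by the authors in 3 libraries with a miRNA kit that adds UMIs. Adapters and low-quality reads were removed and the rest was matched by the authors to miRBase and then to Rfam. FastQC, cutadapt 2.7 and Bowtie 1.2.2 are listed in the submitters' processing notes. The deposited values are raw UMI counts per sequence, without normalization, and the lowest deposited count is 11. The sources used here do not name the genome build in words and do not give the Rfam version. Nor is it said whether strand was used or how multiple matches were treated. Positions are therefore those in the sequence names and need not hold on another cattle assembly. No annotation was placed on them, and no sequence was read. Family names came from the rows of the authors' small RNA table at hand, which is shortened. No values of that table were used.

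Shares, the length and strand from the positions, clusters (largest gap 100 kb, at least 5 loci) and near-equal groups (at least 100 UMIs, 5%) were computed with Python 3.11.15, numpy 2.4.6, pandas 2.3.3 and scipy 1.17.1, and figures with matplotlib 3.10.9. Intervals are Wilson for shares and exact binomial for ratios, and cover counting error only. TMM factors of edgeR 4.0.16 and size factors of DESeq2 1.42.0, in R 4.3.3, served as other scalings of the library ratios. The calculations were tested on simulated data. The named loci are the 20 with the highest mean share, the highest of each near-equal group with at least 5 loci or among the 6 with the most UMIs, of each cluster with at least 1% and of each length class, the 3 highest and 3 lowest ratios of each library pair, and the 3 highest loci listed in 1 library only. The further loci of near-equal groups, of the chromosome X cluster and of the set high in library 3, and the loci that dominate a chromosome, were named after their values were seen. Members, limits and rules were chosen with earlier results of these data known. The miRNA tables served only as a denominator.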

Additional observations from a re-analysis of the deposited data

Results flagged for a closer look

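A sequence of the separate family tRNA-Sec, the tRNA that carries selenocysteine, was listed outside the 919 loci. It lies at chr18:53510972-53511057, is 86 bases long, and was listed with 215, 732 and 225 UMIs. This was 0.02122%, 0.03778% and 0.02605% of the Rfam UMIs of libraries 1, 2 and 3. It was picked out because no comparison in the report used it. With 3 libraries, no check for a library that stands apart was possible.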

How the results depend on the processing

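No paired analysis was possible because all 3 libraries belong to a single condition. When 1 library was left out, the tRNA share of Rfam UMIs ranged from 58.1% to 69.2%, the number of listed loci from 825 to 887, the share of the 20 highest loci from 62.1% to 62.7%, that of chromosome 3 from 42.0% to 43.4% and that of chromosome 23 from 13.6% to 13.9%. Leaving out 1 of 3 libraries can hardly move a mean by 1 SD, so this is no measure of stability. With near-equal tRNA loci counted once and all other Rfam sequences left as counted, tRNA held 36.3% of the Rfam total of that count. In the same count the 20 highest units held 70.2%, chromosome 3 32.1%, chromosome 23 10.6%, clusters 50.4% and 72-base loci 71.4% of its tRNA total. The spread of the log2 ratio of library 2 to library 1 (10th to 90th percentile) was 1.37 against 1.52. The number of units for 50% was then 6.33 in the mean, against 15 loci. Requiring 30 UMIs in every library left 436 loci, a share of 63.3% for the 20 highest and a spread of 1.69. Requiring 100 UMIs left 241 loci and gave 65.0% for the 20 highest, 62.9% for clusters and 90.1% for near-equal groups, since fewer loci remained. Under both limits the shares are percentages of the UMIs of the loci kept. A gap of 10 kb gave 51.8% for clusters. A tolerance of 2% gave 70.03% and one of 3 square roots of the summed counts 82.3% for near-equal groups. The median log2 ratio of library 2 to library 1, 0.09, was 0.21 with TMM and 0.15 with DESeq2 size factors. In alternatives added after seeing the data, the median for library 3 to library 1, 0.36, turned to -0.17 (TMM) and -0.18 (DESeq2), and that for library 3 to library 2, 0.08, to -0.57 and -0.52. The difference in highest share of tRNA minus ribosomal RNA, -3.82 percentage points, turned to 2.78 with near-equal sequences counted once in both. Of 74 alternative values, 51 stayed within 1 SD (numbers of loci within 1.5 times), 18 moved further and these 5 changed sign. All values with 1 library left out are among the 51, so this tally is no measure of stability either. For the spread and the median of library 2 to library 1, the SD was taken over the library pairs and not over libraries. Loci near 11 UMIs have large counting errors, and their absence from a library was not detectable at this depth.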
